A study of Mus musculus with 200 samples.

Results

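The genes described here are 10 of the immediate early genes of the mouse, *Fos*, *Fosb*, *Jun*, *Junb*, *Egr1*, *Egr2*, *Atf3*, *Ier2*, *Dusp1* and *Nr4a1*. They were taken by their symbols from the 22033 genes counted in each embryo, and all 10 had a row in the tables. Whole mouse embryos at embryonic day 11.5 were separated from their extra-embryonic material, and 3SEQ, a form of RNA-seq that reads the 3′ ends of transcripts, was performed on each embryo. The 16 F1 embryos came from reciprocal matings of the inbred strains C57BL6/J (B6) and Castaneus (Cast), 8 with a B6 mother (B6 × Cast, 2 litters) and 8 with a Cast mother (Cast × B6, 2 litters). The 154 N2 embryos came from backcrosses to B6, 89 of them carried by B6 females mated with F1 males (B6 × F1, 17 litters) and 65 to F1 females mated with B6 males (F1 × B6, 12 litters). The F1 parents all had B6 mothers and Cast fathers, so that N2 embryos of both crosses carried B6 mitochondria and were, at each autosomal gene, either B6/B6 or heterozygous. The labels name no treatment. Expression is given as reads per 1000000 reads counted on genes (RPM).

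Immediate early genes are transcribed within minutes of a stimulus such as serum, a growth factor, a depolarization or a mechanical or chemical stress, without the synthesis of new protein. Kinases of the MAPK pathways phosphorylate factors that already sit at their promoters, among them serum response factor with its ternary complex partners, which bind the CArG box, and CREB, which binds the cAMP response element (CRE). Many of the transcripts are short lived, and several of the proteins then act on the genes themselves: Fos and Jun proteins form AP-1, and Dusp1 removes the phosphates from the MAP kinases. Dissection and dissociation of a tissue are known to induce these genes, so that their levels in RNA from dissected material are often looked at as a record of handling. *Jun* is also needed for the development of the fetal liver, *Egr2* marks rhombomeres of the hindbrain, and *Junb* is needed for the vessels of the placenta and embryo.

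Promoters of 8 of the 10 members were searched in the RefSeq promoter table (build GRCm38.p6, 250 bases before to 50 bases after the start of transcription, 12 promoters), on both strands. The motifs were the CArG box, the CRE TGACGTCA, its half-site TGACG, which also lies inside the full CRE, the AP-1 site TGACTCA and the TATA box TATAAA. The 5 promoters below show the range from the most to the fewest matches among the members that the results turn on, with *Fos* and *Egr2* as 2 members that were nearly silent. Capitals mark the CArG box, the CRE and its half-site. They are the promoters of *Dusp1* (minus strand, chr17:26508423-26508722), *Egr2* (plus strand, chr10:67537620-67537919), *Fos* (plus strand, chr12:85473640-85473939), *Junb* (minus strand, chr8:84978699-84978998) and *Jun* (minus strand, chr4:95052173-95052472).
Dusp1: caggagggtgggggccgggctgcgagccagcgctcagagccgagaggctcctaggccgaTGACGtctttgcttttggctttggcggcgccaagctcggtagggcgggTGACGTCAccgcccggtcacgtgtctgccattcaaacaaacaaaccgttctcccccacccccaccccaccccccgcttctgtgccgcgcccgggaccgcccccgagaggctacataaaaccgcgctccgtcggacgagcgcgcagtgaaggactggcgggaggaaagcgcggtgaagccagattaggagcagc
Egr2: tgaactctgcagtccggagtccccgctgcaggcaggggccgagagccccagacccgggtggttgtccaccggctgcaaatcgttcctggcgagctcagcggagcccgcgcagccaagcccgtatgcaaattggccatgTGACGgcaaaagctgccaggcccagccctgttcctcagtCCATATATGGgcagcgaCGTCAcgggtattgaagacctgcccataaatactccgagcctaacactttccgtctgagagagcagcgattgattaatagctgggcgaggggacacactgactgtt
Fos: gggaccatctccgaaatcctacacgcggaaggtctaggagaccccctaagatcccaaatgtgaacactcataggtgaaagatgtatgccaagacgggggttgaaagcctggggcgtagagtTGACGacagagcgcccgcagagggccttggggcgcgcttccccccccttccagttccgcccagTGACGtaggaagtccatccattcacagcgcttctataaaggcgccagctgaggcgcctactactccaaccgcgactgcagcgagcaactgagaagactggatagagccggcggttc
Junb: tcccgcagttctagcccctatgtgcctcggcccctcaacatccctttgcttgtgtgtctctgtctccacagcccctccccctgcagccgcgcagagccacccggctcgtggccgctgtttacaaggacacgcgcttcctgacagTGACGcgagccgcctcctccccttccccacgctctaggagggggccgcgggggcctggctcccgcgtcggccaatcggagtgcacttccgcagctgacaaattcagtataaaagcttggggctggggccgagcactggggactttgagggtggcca
Jun: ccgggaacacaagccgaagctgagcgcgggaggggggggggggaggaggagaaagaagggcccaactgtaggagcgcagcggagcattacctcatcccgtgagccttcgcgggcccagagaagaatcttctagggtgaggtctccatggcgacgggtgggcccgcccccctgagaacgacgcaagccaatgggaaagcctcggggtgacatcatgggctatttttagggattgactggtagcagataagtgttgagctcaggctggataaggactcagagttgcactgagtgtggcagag

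The full CRE was found in the *Dusp1* promoter and in no other of the 12, against 1.79% of all 32851 promoters in the table. The CArG box was found in 4 of the 5 promoters listed for *Egr2* and in no other member (1.63% of all promoters). Of these 4 promoters, 3 overlap one another and hold the same CArG box and the same half-sites, so they are not separate matches. At least 1 half-site TGACG was found in 7 of the 8 genes, with 4 in *Nr4a1*, 3 in *Dusp1*, 2 in *Fos* and in 3 of the *Egr2* promoters, and 1 each in *Atf3*, *Fosb* and *Junb*. The half-site was in 20.8% of all promoters. The *Jun* promoter held none of the 5 motifs, the AP-1 site was in none of the 12 promoters (5.2% of all), and TATAAA was in those of *Fos* and *Junb* (13.6% of all). These are matches of letters in a short window, and sites farther from the start were not searched.

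In these untreated embryos the 10 genes spanned levels from a few reads per library to over 100 RPM. Reads on genes numbered 15703888 to 38234229 per F1 embryo (median 30107972) and 245220 to 5370322 per N2 embryo (median 2297774), and 13 N2 embryos had under 1000000. Of these 13 embryos, 8 were among the 11 of lane J, whose median was 577807 reads. In that lane 1 read was worth more RPM than elsewhere, and RPM values of the low genes there rest on a handful of reads. RPM was not corrected for properties of the single genes, and levels are therefore compared between embryos and not between genes. In bulk RNA of whole embryos, fewer cells of a type and less RNA per cell cannot be told apart. All 10 markers of embryonic tissues set for the check, such as *Afp* of the liver, *Sox2* of the neural tube and *Myod1* of muscle, were read in both generations. Of 10 markers of placenta and decidua, *Prl3d1*, *Prl2c2* and *Cts7* were at 0 in every embryo. *Tpbpa*, *Prl3b1*, *Psg17*, *Gcm1*, *Prl8a2* and *Plac1* were read at low means, at most 0.438 RPM in F1 and 0.292 RPM in N2 embryos, both for *Plac1*. The list's summed level of 2.34 to 162 RPM was mostly *Dcn*, which embryonic mesenchyme also expresses.

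The *Fos* family was at the edge of detection. *Fos* (chromosome 12, 86814840 to 86818223 in mm9, plus strand), which encodes the AP-1 subunit that gives the class its best known marker, was covered by 87 reads in all 16 F1 embryos together, at 0 to 0.419 RPM (median 0.158), and 15 of 16 embryos had at least 1 read. In N2 embryos 54 reads fell on *Fos* in total, and 116 of 154 embryos had none. Such a count of 0 allows up to 3 reads in a library. The highest N2 value, 13.7 RPM, was 4 reads in a library of 292486 reads, and among the 141 embryos with at least 1000000 reads the highest was 2.61 RPM. *Fosb* (chromosome 7, 19888070 to 19895394, minus strand), another AP-1 subunit, had 91 reads in F1 embryos, at 0.058 to 0.47 RPM, and 104 in N2 embryos, of which 92 had none. *Egr2* (chromosome 10, 66998223 to 67004936, plus strand), a zinc finger factor of the hindbrain and of Schwann cells, had 39 reads in F1 and 69 in N2 embryos, of which 113 had none. These 3 genes did not reach a mean of 1 RPM in either generation and were in no test of level.

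The other zinc finger member, *Egr1*, which is on chromosome 18, was read in all 16 F1 embryos, at 0.939 RPM in the lowest, 2.51 at the median and 4.54 in the highest. In N2 embryos its mean was 0.942 RPM (SD 1.13, n = 154), with 47 embryos at 0 and 5.66 RPM in the highest, and it therefore fell below the minimum of 1 RPM there. *Atf3* (chromosome 1, 192994175 to 193007219, minus strand), a stress-induced partner of *Jun*, was at 0.929, 1.7 and 3.09 RPM in the lowest, median and highest F1 embryo and at 0, 1.33 and 6.55 RPM in the N2 embryos.

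*Jun* and *Junb* were read in every embryo. *Jun* (chromosome 4, 94715725 to 94718913, minus strand), the main partner of *Fos* in AP-1, was at 44.3, 54.6 and 68.6 RPM in the lowest, median and highest F1 embryo and at 6.6, 41 and 88.3 RPM in N2 embryos. *Junb* (chromosome 8, 87500811 to 87502617, minus strand), which can also restrain *Jun* at AP-1 sites, was at 6.83, 8.95 and 11.4 RPM in F1 and at 2.64, 7.99 and 23.4 RPM in N2 embryos. The 2 generations overlapped for both genes, with 51 of 154 N2 embryos inside the F1 range of *Jun* and 60 inside that of *Junb*.

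*Ier2* (chromosome 8, 87185230 to 87186751, minus strand), whose protein is a small regulator found in nucleus and cytoplasm, was at 73.3, 114 and 203 RPM in F1 embryos and at 8.19, 57.8 and 134 RPM in N2 embryos. Of the 154 N2 embryos, 119 lay below the lowest F1 embryo and none above the highest. *Dusp1* (chromosome 17, 26642535 to 26645464, minus strand), the phosphatase that ends MAPK signals, was at 4.31, 6.39 and 10.2 RPM in F1 and at 0, 1.42 and 24.5 RPM in N2 embryos, 135 of which lay below the F1 range. *Nr4a1* (chromosome 15, 101097277 to 101105223, plus strand), an orphan nuclear receptor induced by serum and stress, was at 2.55, 3.9 and 5.21 RPM in F1 and at 0, 2.71 and 13.8 RPM in N2 embryos. The highest *Dusp1* value was 6 reads in a library of 245220 reads, and among embryos with at least 1000000 reads the highest was 7.97 RPM. F1 and N2 libraries were made and sequenced apart, generation and library cannot be told apart, and the differences between generations were not tested.

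Of the 6 members with a mean of at least 1 RPM in N2 embryos, 4 varied less between embryos of a lane than most genes of their level. The coefficient of variation beyond counting error was estimated with edgeR for each gene among embryos of the same lane and compared, as a description, with genes whose mean RPM was within 1.5 times that of the member. *Junb* had 0.19 within lanes, where genes of its level had a median of 0.347, and only 4.05% of them were lower. *Jun* had 0.191 (median of its level 0.273, 14.3% lower), *Atf3* 0.238 (0.384, 8.46%) and *Nr4a1* 0.273 (0.378, 19.2%). *Ier2* and *Dusp1* were closer to the middle, with 0.31 (0.264, 67.3%) and 0.403 (0.38, 57.2%). Within F1 litters the values were lower, from 0.119 for *Jun* to 0.209 for *Dusp1*, and the median of all genes was 0.17 there and 0.312 within N2 lanes.

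In F1 embryos, 5 of the 7 members with a mean of at least 1 RPM differed between the 4 litters, among 59.1% of all 13122 genes tested (edgeR quasi-likelihood test with Benjamini-Hochberg adjustment). Of these 5, *Ier2*, *Atf3* and *Egr1* kept the call in every alternative that was run. The litters differed in stage as well. The embryos of B6 × Cast litter 3 with a recorded stage had 58 and 63 somites, those of B6 × Cast litter 5 had 48 to 50, those of Cast × B6 litter 2 had 46 to 48, and those of Cast × B6 litter 1 had 41 to 43. Cast × B6 litter 2 was also sequenced in another pair of runs than the other 3 litters, so that litter, cross, stage and run cannot be told apart.

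*Ier2* differed between the litters and also separated the crosses. It was at 77.4 ± 3.51 RPM (mean ± SD, n = 3) in B6 × Cast litter 3, at 106 ± 6.03 (n = 5) in litter 5, at 130 ± 11.2 (n = 4) in Cast × B6 litter 2 and at 165 ± 36.6 (n = 4) in litter 1. The highest embryo of B6 × Cast, at 111 RPM, was below the lowest of Cast × B6, at 116 RPM, so that the crosses did not overlap. How many of all genes were without such overlap was not counted. The edgeR adjusted p for the 4 litters was 1.5e-05, and litters accounted for 78.8% of the variance of log2(RPM + 1) of *Ier2*, compared with 45.1% for the median gene.

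*Egr1* and *Atf3* followed another order. *Egr1* was at 3.86 ± 0.641 RPM (n = 3) in B6 × Cast litter 3, 2.21 ± 0.269 (n = 5) in litter 5, 2.85 ± 0.357 (n = 4) in Cast × B6 litter 1 and 1.65 ± 0.662 (n = 4) in litter 2. Its highest litter did not overlap the others, while the embryos of the remaining litters did (edgeR adjusted p = 0.00217). The share of all genes with 1 litter apart in this way was not counted. *Atf3* was at 1.92 ± 0.152, 1.44 ± 0.352, 2.51 ± 0.49 and 1.56 ± 0.0486 RPM in the same 4 litters, and 3 of the 4 embryos of Cast × B6 litter 1, which spanned 1.88 to 3.09 RPM, lay above all others (edgeR adjusted p = 0.00175). The litters in which both genes were higher were also the deepest, at 31272808 to 38234229 reads against 15703888 to 31208516 in the other litters, and over the 16 embryos the Spearman correlation with depth was 0.624 for *Egr1* and 0.771 for *Atf3*. The part of depth in these differences was not tested.

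*Jun* was at 50.5 ± 3.59 and 49.4 ± 3.91 RPM in the B6 × Cast litters 3 and 5 and at 53.6 ± 6.38 and 60.5 ± 6.04 RPM in the Cast × B6 litters 1 and 2, with overlapping embryos and an edgeR adjusted p of 0.0238. *Dusp1* was at 4.78 ± 0.792, 5.96 ± 1.21, 6.72 ± 0.874 and 7.43 ± 2.33 RPM in the same order, again with overlap between litters (edgeR adjusted p = 0.0422). Both calls were lost without TMM scaling, with edgeR adjusted p of 0.0783 for *Jun* and 0.124 for *Dusp1*, and when 1 embryo was left out, 1 embryo of 16 for *Jun* and any of 6 for *Dusp1*. *Junb*, at litter means of 8.31 to 10.1 RPM, and *Nr4a1*, at 3.42 to 4.28 RPM, did not pass (edgeR adjusted p = 0.333 and 0.508).

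**Figure D1:**
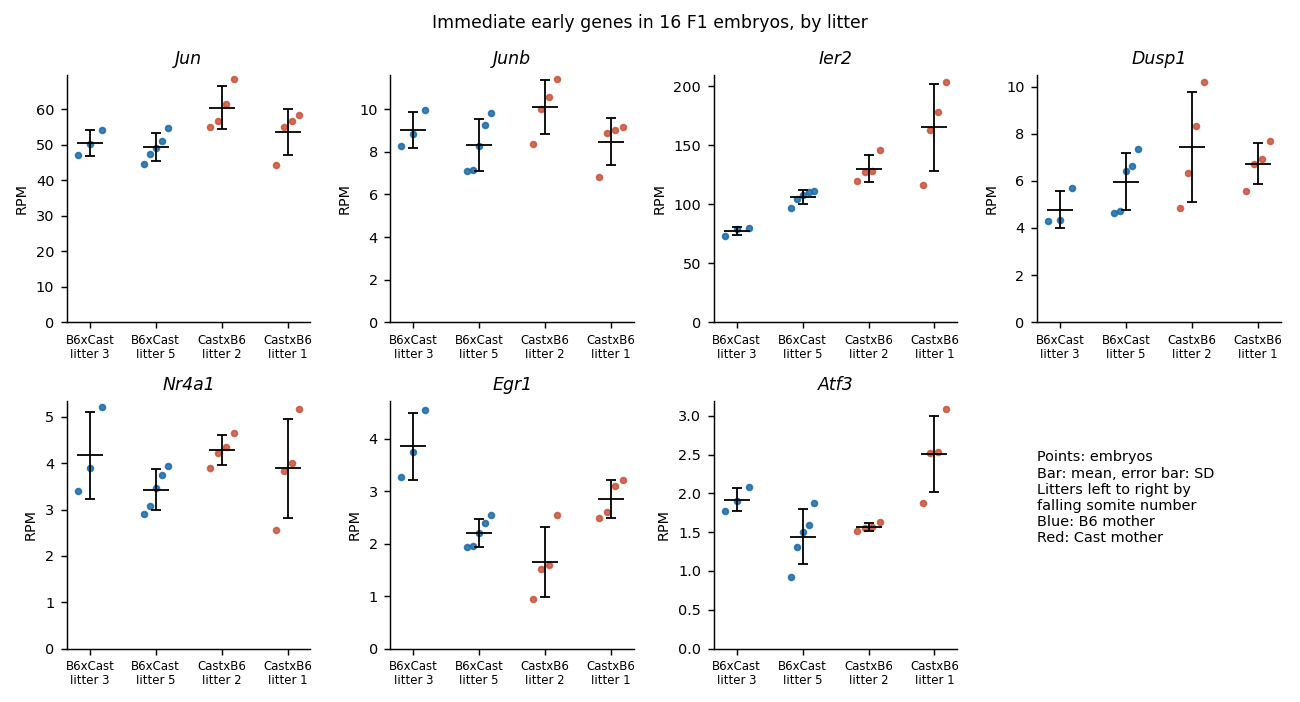
RPM of the 7 members with a mean of at least 1 RPM in the 16 F1 embryos, by litter, ordered from the most to the fewest somites (points, embryos; bars, mean ± SD; blue, B6 mother; red, Cast mother). Ier2 stepped from 77.4 RPM in the litter with the most somites to 165 RPM in the litter with the fewest, while Junb and Nr4a1 overlapped between all litters.

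The comparison of the reciprocal crosses that was least disturbed by stage set B6 × Cast litter 5 against Cast × B6 litter 2. None of the 7 members passed in it, among 14.1% of all genes (edgeR quasi-likelihood test with Benjamini-Hochberg adjustment). *Jun* was higher in Cast × B6 by 0.24 ± 0.09 on the log2 scale (± SE; edgeR adjusted p = 0.0988) and *Ier2* by 0.24 ± 0.11 (0.166). The 5 B6 × Cast embryos lay below the 4 Cast × B6 embryos for both genes, and the share of all genes separated this way was not counted. *Junb*, *Nr4a1*, *Dusp1* and *Atf3* were higher by 0.22, 0.27, 0.26 and 0.06, with SE of 0.13 to 0.20. *Egr1* was lower, at -0.47 ± 0.20 (edgeR adjusted p = 0.138), and at -0.71 with an adjusted p of 0.0293 when 1 Cast × B6 embryo of litter 2 was left out. At an unadjusted p under 0.05 were *Jun*, *Ier2* and *Egr1*. Of 33 other immediate early genes tested, 4 passed, with *Ier5*, *Dusp6* and *Dusp2* higher in Cast × B6 by 0.95, 0.62 and 0.42 and *Gadd45g* lower, at -0.76.

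In N2 embryos, litters were spread over 14 lanes of 2 flowcells, 10 of the 29 litters were split between lanes, and 1 lane held embryos of both mothers. All 6 members with a mean of at least 1 RPM differed between litters (edgeR quasi-likelihood test with Benjamini-Hochberg adjustment), as did 96.8% of all 13145 genes, a share that leaves nothing particular to the members. The F statistic of the members had a median of 3.28, and that of all genes 6.13. Because litters and lanes largely went together, litter was also tested in a model that already held lane, and lane in a model that already held litter.

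Beyond lane, litter was called for *Ier2* and *Dusp1*, 2 of 6 members, and for 47.6% of all genes. Beyond litter, lane was called for the same 2 of 6 members and for 78.1% of all genes. The edgeR adjusted p for *Ier2* was 1.56e-06 for litter and 2.14e-08 for lane, and those for *Dusp1* were 0.026 and 0.0165. All 4 calls remained without B6 × F1 litter 2, a litter of 3 embryos with 245220 to 681583 reads, and with the embryos of under 1000000 reads left out, where the edgeR adjusted p for *Ier2* were 8e-04 and 0.0043 and for *Dusp1* 0.0255 and 0.0477. For the other 4 members the edgeR adjusted p for litter beyond lane were between 0.197 for *Atf3* and 0.92 for *Jun*, and those for lane beyond litter between 0.0712 for *Atf3* and 0.42 for *Nr4a1*. *Junb* passed for lane at a minimum mean of 5 RPM (edgeR adjusted p = 0.0402), and without TMM scaling *Junb* and *Atf3* passed for lane (0.00122 and 0.0272).

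*Ier2* lane means ran from 34.9 ± 6.59 RPM (n = 11) in lane G to 88.5 ± 15.7 (n = 11) in lane B, and all embryos of lane G, at up to 48.3 RPM, lay below all embryos of lane B. Within lane J the embryos spanned 8.19 to 110 RPM. The 3 embryos of B6 × F1 litter 3 in lane J were at 15.3 RPM on average (8.19 to 19.4), whereas 6 of their littermates in lane I were at 65.6 RPM (57 to 71.9) and another 2 in lane F at 51.1 RPM. The lane J values rest on few reads, 4 in the lowest embryo. *Jun* in the same embryos was at 46.5 RPM in lane J, 38.7 in lane I and 24.5 in lane F. The embryos of F1 × B6 litter 9 were at 68.4 RPM (63.9 and 72.9) in lane C and at 33.5 RPM (28.8 to 40) in lane G, again without overlap. How many of all genes were without overlap between these lanes was not counted. *Dusp1* lane means ran from 0.787 RPM in lane F to 7.35 RPM in lane J, the shallowest lane.

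*Jun*, *Junb*, *Nr4a1*, *Atf3* and *Dusp1* shared another pattern across lanes. Lane means of *Jun* were 27.8 to 49.4 RPM on the first flowcell (lanes A to G) and 37.5 to 61.1 RPM on the second (lanes H to N), and *Junb* had lane means of 4.6 to 8.86 and of 6.89 to 16.1 RPM. *Nr4a1* had a mean of 2.26 ± 1.43 RPM (SD, n = 75) on the first and 4.42 ± 3.07 (n = 79) on the second flowcell, *Atf3* 1.15 ± 0.849 and 2.06 ± 1.6 RPM, and *Dusp1* 1.24 ± 0.999 and 3.03 ± 3.44 RPM. In all 5 genes the means of lanes K, L and M were above that of every lane of the first flowcell, and single embryos of the flowcells overlapped. The share of all genes with this order of lanes was not counted. Flowcell accounted for 10.3% of the variance of log2(RPM + 1) of *Jun*, 23.1% for *Junb*, 14.1% for *Nr4a1*, 6.8% for *Atf3* and 13.3% for *Dusp1*, with 9.5% for the median gene. Of the members under 1 RPM, *Fosb* was lower on the second flowcell (0.422 and 0.146 RPM), and *Fos*, *Egr1* and *Egr2* were higher. *Ier2* had 62.1 ± 22.8 RPM on the first and 56 ± 22.2 RPM on the second flowcell. Lane accounted for 38.3% of the variance of log2(RPM + 1) of *Jun*, 49.3% for *Junb*, 39.1% for *Atf3*, 42.3% for *Ier2*, 37.8% for *Dusp1* and 39.8% for *Nr4a1*, in each case under the median of all genes, 51.2%.

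**Figure D2:**
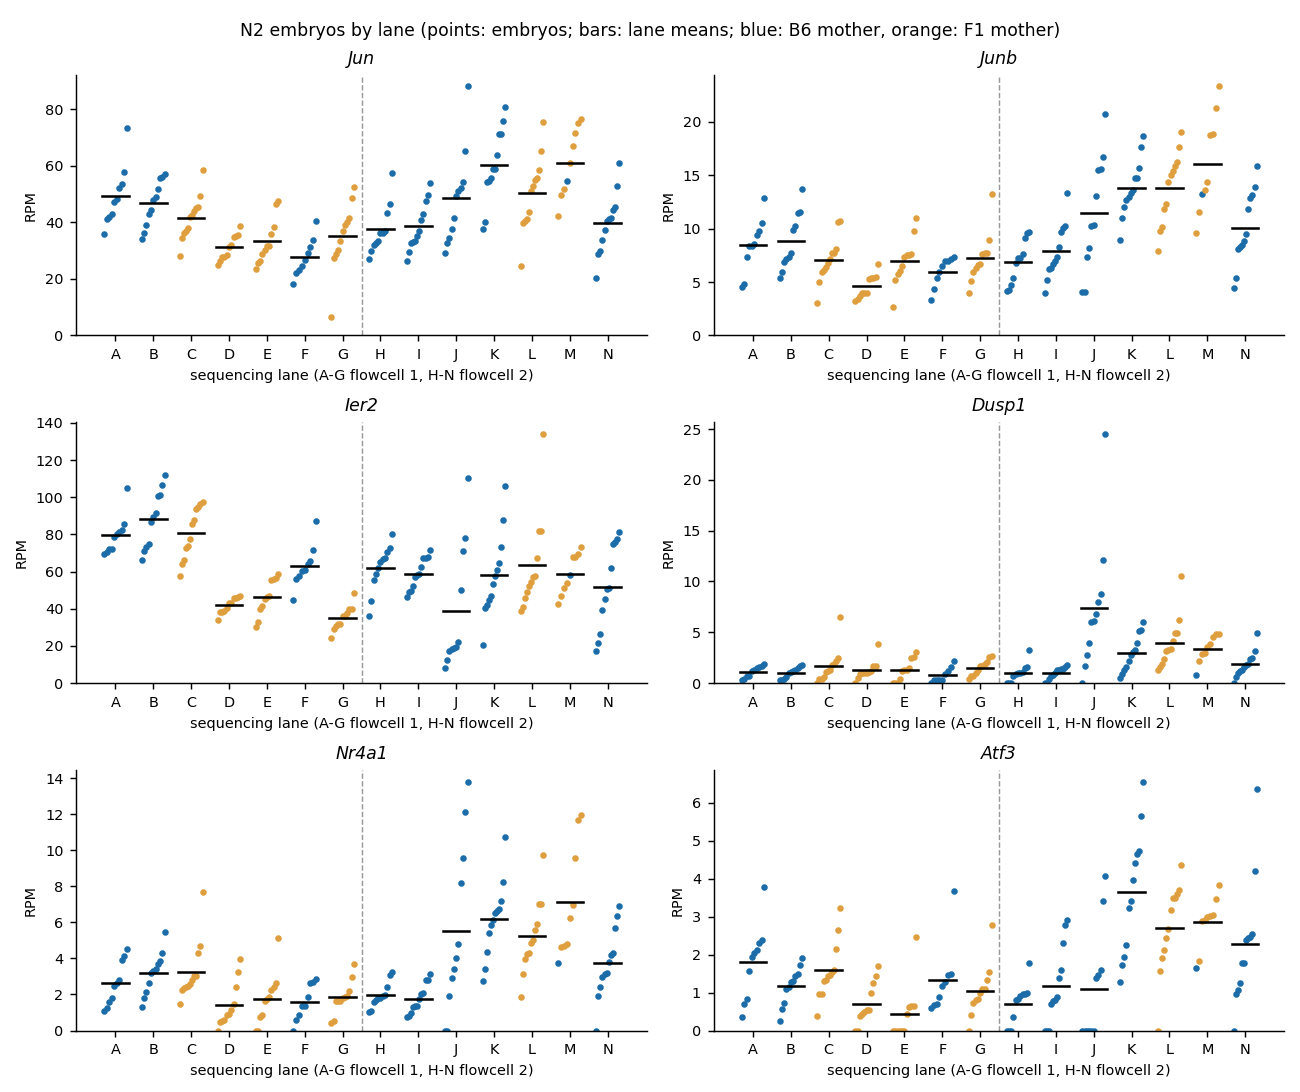
RPM of the 6 members with a mean of at least 1 RPM in the 154 N2 embryos, by sequencing lane (points, embryos; bars, lane means; blue, B6 mother; orange, F1 mother; dashed line, change of flowcell). Ier2 was lowest in lane G (mean 34.9 RPM) and highest in lane B (88.5 RPM), and the lane K, L and M means of the other 5 genes lay above those of all lanes of the first flowcell.

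The order in which embryos of a litter were numbered, which may or may not be the order of dissection, was not associated with the members. In a model with blocks of litter and lane, the slope per embryo number was -0.06 ± 0.02 on the log2 scale for *Junb*, the steepest after its error, and between -0.05 and -0.01 for the other 5 members. None of 6 passed, compared with 0.129% of all genes (edgeR quasi-likelihood test with Benjamini-Hochberg adjustment; adjusted p = 0.331 for *Junb*), and at an unadjusted p under 0.05 there was *Junb* alone.

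The genotype of the mother was compared with the Mann-Whitney U test of the study's methods, with Bonferroni adjustment, over genes at 5 RPM or more on average. No member passed among the 3 tested, compared with 5.03% of all 9733 genes. *Jun* was at 44.1 ± 13.9 RPM (SD, n = 89) in embryos of B6 mothers and 41.5 ± 14.2 (n = 65) in embryos of F1 mothers, *Junb* at 9.36 ± 3.82 and 9.08 ± 4.87, and *Ier2* at 62.1 ± 23.4 and 54.7 ± 21 RPM. The ranges overlapped for all 3 genes. In pairs of 1 embryo from each group, the embryo of the F1 mother was the higher one in a share of 0.438 for *Jun*, 0.445 for *Junb* and 0.368 for *Ier2*, with 0.501 for the median gene. The Bonferroni-adjusted p was 1 for each, and the unadjusted p of *Ier2* was 0.00537. With genes from a mean of 1 RPM on, 0 of 6 members passed, compared with 3.89% of all genes. The p-values treat embryos as independent, although embryos of a litter and lane share their handling.

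Under the Benjamini-Hochberg adjustment 31.6% of all genes passed, and *Ier2* with them (q = 0.021), but *Jun* and *Junb* not (0.343 and 0.404). *Ier2* had an adjusted p of 0.0931 with edgeR and of 0.0498 with DESeq2, and of 0.954 with limma and litter as a random block. Over litter means, *Ier2* was at 63.8 RPM in 17 litters of B6 mothers and 58.9 RPM in 12 litters of F1 mothers. The Bonferroni-adjusted test of these means could call no gene, because even full separation of 17 from 12 litters stays above its threshold. Within the first flowcell, *Ier2* was lower in embryos of F1 mothers, at 51.6 ± 20.3 RPM (n = 45) compared with 78 ± 16.4 (n = 30), and it passed with a Bonferroni-adjusted p of 0.00863, as 1 of 3 members and with 2.18% of all genes. Within the second flowcell the order was the other way for all 3 genes, without a call. *Jun* was at 45.2 ± 14.5 RPM (n = 59) in embryos of B6 mothers and 55 ± 14.1 (n = 20) in those of F1 mothers, *Junb* at 10.1 ± 4.14 and 14.9 ± 4.14, and *Ier2* at 54.1 ± 22.4 and 61.7 ± 21.4 RPM.

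The change of the mother's difference between the flowcells was tested with an interaction in edgeR, which was added after seeing the data. The estimate is the log2 ratio of F1 to B6 mothers on the second flowcell minus that on the first. It was called for *Junb*, at 0.53 ± 0.17 on the log2 scale (edgeR adjusted p = 0.0105), and not for *Ier2*, at 0.47 ± 0.20 (0.0536), or *Jun*, at 0.22 ± 0.13 (0.195). The log2 ratio of the mean RPM of *Junb* was -0.27 on the first and 0.56 on the second flowcell, which lie farther apart than the edgeR estimate. This made 1 of 3 members, compared with 31.4% of all genes. Only 1 lane held both mothers, and mother and lane cannot be told apart within a flowcell. In the Bonferroni-adjusted test of the mother, where 5.03% of all genes passed, 2 of 19 other immediate early genes did, with *Rhob* higher in embryos of F1 mothers in a share of 0.8 of the pairs and *Btg1* in 0.265. Of 15 regulators upstream of these genes, such as the MAP kinases, 1 passed, *Mapk3*, at 0.26. None of 7 heat shock genes and 13 genes of the hypoxia response passed.

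**Figure D3:**
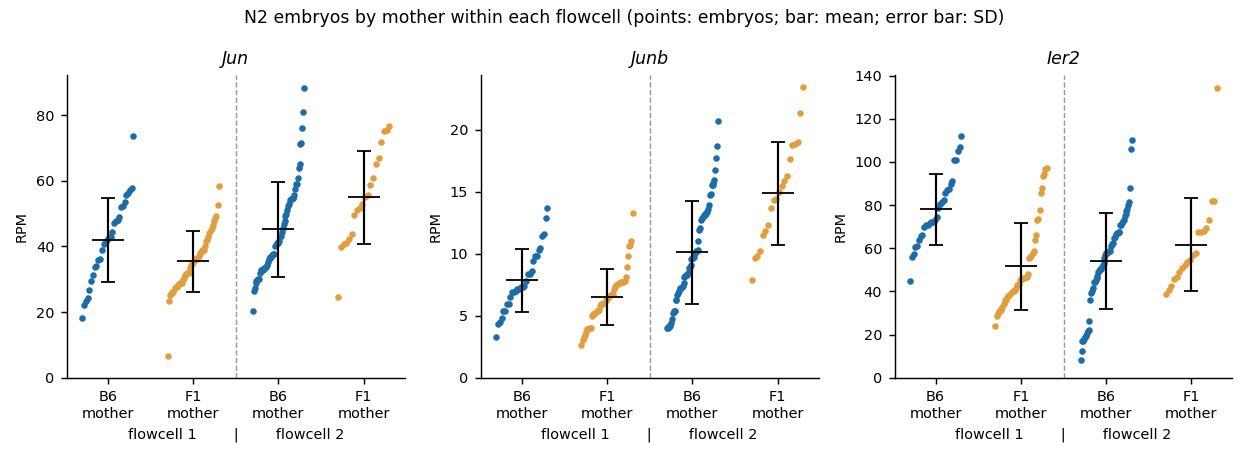
RPM of Jun, Junb and Ier2 in N2 embryos by the mother's genotype, within each flowcell (points, embryos; bars, mean ± SD; blue, B6 mother; orange, F1 mother). Embryos of F1 mothers were lower for all 3 genes on the first flowcell and higher on the second, for example 7.86 and 6.51 RPM, then 10.1 and 14.9 RPM, for Junb.

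Somite number, which ran from 42 to 57 in the 147 N2 embryos with a record, gave no call for a member without correction for lane. Spearman's rho was 0.108 for *Jun*, -0.06 for *Junb* and -0.099 for *Ier2* (Benjamini-Hochberg q of 0.349, 0.631 and 0.393), none had an unadjusted p under 0.05, and 0 of 3 members passed, compared with 22% of all genes. With genes from a mean of 1 RPM on, rho was 0.073 for *Atf3*, 0.058 for *Nr4a1* and 0.047 for *Dusp1*, and 0 of 6 passed, with 18.9% of all genes. In the same test without correction for lane, where 22% of all genes passed, 3 of 19 other immediate early genes rose with somite number, *Gadd45b* (rho 0.367), *Ier3* (0.31) and *Jund* (0.218). Of 7 heat shock genes 2 fell, *Hsp90ab1* (-0.296) and *Dnajb1* (-0.292), and 3 of 13 hypoxia genes fell, while 3 of 16 upstream regulators and 3 of 10 markers of embryonic tissues rose. After the mean of each lane was subtracted, 3.87% of all genes passed. *Ier2* then had a rho of -0.253 with a q of 0.051 and did not pass, *Junb* one of -0.156 and *Jun* one of -0.0085.

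Whether the members rose and fell together was examined over pairs of members. Without any correction, 10 of 15 pairs of the 6 members had a Spearman's rho of at least 0.3 over the N2 embryos, as did 29.3% of all pairs of genes, and the median of the 15 pairs was 0.394, compared with 0.069 over all pairs. *Jun* and *Junb* had the highest rho, 0.556. After the lane mean was subtracted from log2(RPM + 1), none of the 15 pairs reached 0.3, as 10.5% of all pairs did, the median was 0.098, compared with 0.046, and 11 of 15 were above 0.

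Among the 3 members with a mean of at least 5 RPM, *Junb* and *Ier2* were correlated within lanes, with a rho of 0.253 (permutation p = 0.00362, adjusted over the 3 pairs 0.0109) and a Pearson's r of 0.275 (permutation p = 0.00979, adjusted 0.0294). Leaving out the 2 embryos most distant from the median of *Junb* gave an r of 0.221, and embryos extreme for *Ier2* alone were kept. With embryos of under 1000000 reads left out, rho was 0.127 (adjusted permutation p = 0.234) and the call was lost. *Jun* and *Junb* had a rho of 0.167 (permutation p = 0.0498, adjusted 0.0747) and an r of 0.205 (adjusted 0.0295), and *Jun* and *Ier2* a rho of 0.11 (adjusted permutation p = 0.205) and an r of 0.0582. The rho of *Junb* and *Ier2* was 0.314 within the first flowcell (permutation p adjusted over the 3 pairs 0.0266) and 0.23 within the second (0.175). Over the 15 pairs of 6 members, which were added after seeing the data, no pair passed by rho, with *Junb* and *Ier2* lowest in p (adjusted permutation p = 0.0543), and *Jun* and *Nr4a1* passed by r, at 0.262 (adjusted permutation p = 0.0384). The 4 negative pairs were *Atf3*, *Dusp1* and *Nr4a1* each with *Ier2*, at -0.137, -0.132 and -0.014, and *Junb* with *Nr4a1*, at -0.045. Among the same 15 pairs within the second flowcell, *Dusp1* and *Nr4a1* had a rho of 0.415 (adjusted permutation p = 0.0057) and *Jun* and *Nr4a1* one of 0.382 (0.0102) over 79 embryos, and no pair passed within the first.

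**Figure D4:**
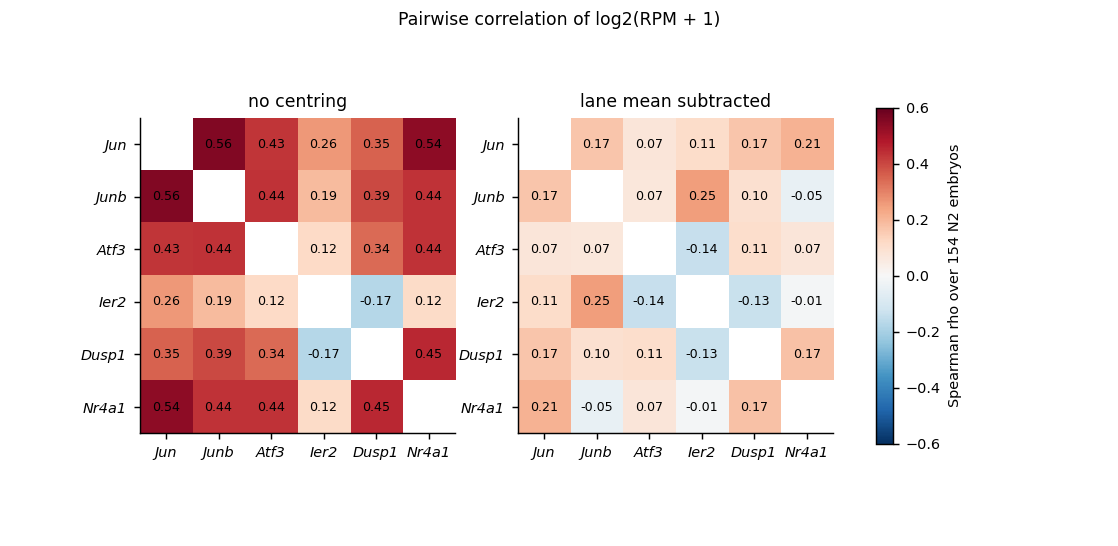
Spearman's rho of log2(RPM + 1) for the 15 pairs of 6 members over the 154 N2 embryos, without correction (left) and after the lane mean was subtracted (right). The rho of Jun and Junb fell from 0.56 to 0.17, and the highest on the right was 0.25, for Junb and Ier2.

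In the 16 F1 embryos, *Jun* and *Ier2* had a rho of 0.712 (permutation p = 0.00283, adjusted over the 6 pairs of members at 5 RPM 0.017) and an r of 0.537 (permutation p = 0.032, adjusted 0.064). Leaving out the 2 embryos most distant from the median of *Jun* gave an r of 0.593. *Ier2* and *Dusp1* had a rho of 0.615 (adjusted permutation p = 0.0392) and an r of 0.599 (adjusted 0.064). After the litter mean was subtracted, rho was 0.75 for *Jun* and *Ier2* (permutation p = 0.00547) and 0.441 for *Ier2* and *Dusp1* (permutation p = 0.107). Over 21 pairs of the 7 members with a mean of at least 1 RPM, added after seeing the data, 10 had a rho of at least 0.3, compared with 30.2% of all pairs of genes, and 4 passed. These were *Egr1* and *Atf3* (rho 0.759), *Jun* and *Ier2*, *Jun* and *Nr4a1* (0.679) and *Junb* and *Nr4a1* (0.638), of which none passed by Pearson's r, with adjusted permutation p from 0.0751 to 0.141. *Egr1*, in contrast, had a rho of -0.197 with *Jun*, -0.271 with *Ier2* and -0.224 with *Dusp1*. Except where the litter mean was subtracted, the permutations ran over all 16 embryos and treated embryos of a litter as independent. Litters accounted for 66.7% of the variance of log2(RPM + 1) of *Egr1* and 59.7% of that of *Atf3*. Both genes also followed depth in these embryos (Spearman correlation 0.624 and 0.771), and the part of depth in their correlation was not tested.

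The genes most like the members within lanes were ranked by their correlation with the mean of the z-scores of all 10 members, over 154 embryos. In this mean the members at the edge of detection, *Fos*, *Fosb* and *Egr2*, weighed as much as the others. They were *Alkbh5* (rho 0.552), *Hcfc1* (0.544), *Fzd10* (0.534), *Dact3* (0.528), *Nav2* (0.524), *Trappc10* (0.519), *Adcy6* (0.511), *Itsn1* (0.505), *Racgap1* (0.497) and *Sart3* (0.491), and none of them was in a list set for the comparison. The median rho of all 10004 genes was 0.128. In F1 embryos all 10 had a rho above 0 with the members, with a median of 0.362, compared with -0.0088 over all 10004 genes. The share of all genes above 0 there was not counted. The other immediate early genes had a median rho of 0.143 (19 genes, 15 above 0), with *Srf*, which binds the CArG box and was also listed upstream, highest at 0.46. Upstream regulators had 0.239 (16 genes), hypoxia genes 0.224 (13), heat shock genes 0.137 (7) and markers of embryonic tissues 0.099 (10). Embryos and lanes are shared by all these values, which are a description.

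For allelic expression the authors counted votes, fractions of reads that carry a B6 or a Cast variant. Of the members, 2 had at least 20 votes in each of the 4 crosses and could be tested with the paired test of the study's methods. Neither was called, compared with 18.9% of 9084 genes. *Dusp1* had 314 B6 and 268 Cast votes over F1 and heterozygous N2 embryos, a B6 allele fraction (BAF) of 0.54, and *Atf3* had 81 and 55 votes, a BAF of 0.596. The Bonferroni-adjusted p was 1 for both. In embryos that were B6/B6 at the gene, *Dusp1* had 3 Cast votes of 207 and *Atf3* 0 of 69. The 95% Wilson intervals that follow cover counting error only, and reads without molecular identifiers are not independent molecules.

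In F1 embryos alone, the pooled BAF was 0.514 (interval 0.459 to 0.569, 319 votes) for *Jun*, 0.513 (0.471 to 0.556, 522 votes) for *Ier2*, 0.541 (0.496 to 0.587, 458 votes) for *Dusp1*, 0.61 (0.499 to 0.712, 77 votes) for *Atf3*, 0.58 (0.462 to 0.689, 69 votes) for *Nr4a1* and 0.483 (0.359 to 0.608, 58 votes) for *Egr1*. Each interval held 0.5. Votes came from a small part of the reads of *Jun* (319 votes, 23927 reads) and *Ier2* (522 votes, 55532 reads), and from a larger part for *Dusp1* (458 votes, 2790 reads). Single embryos with at least 5 votes ranged widely, from 0.35 to 0.656 for *Ier2* and from 0.231 to 0.75 for *Jun*. *Junb* had no vote in any embryo, so that its alleles could not be separated, and *Fos*, *Fosb* and *Egr2* had 8, 4 and 1 votes. In heterozygous N2 embryos *Jun* had 17 B6 and 13 Cast votes, and *Ier2*, *Egr1* and *Nr4a1* had 4, 0 and 0 votes in all.

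Between the reciprocal F1 crosses, the mean BAF per embryo did not differ for any of the 6 members tested (exact permutation test over the embryos, two-sided, adjusted over 6 tests). *Nr4a1* was at 0.333 ± 0.287 in B6 × Cast and 0.631 ± 0.318 in Cast × B6 (n = 8 each, exact p = 0.0727, adjusted 0.218), and *Jun* at 0.446 ± 0.163 and 0.597 ± 0.116 (n = 8 each, exact p = 0.0527, adjusted 0.218). The embryos of the crosses overlapped for both. For *Ier2* the means were 0.518 ± 0.083 and 0.516 ± 0.0954 (exact p = 0.972, n = 8 each). None had an unadjusted p under 0.05.

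**Figure D5:**
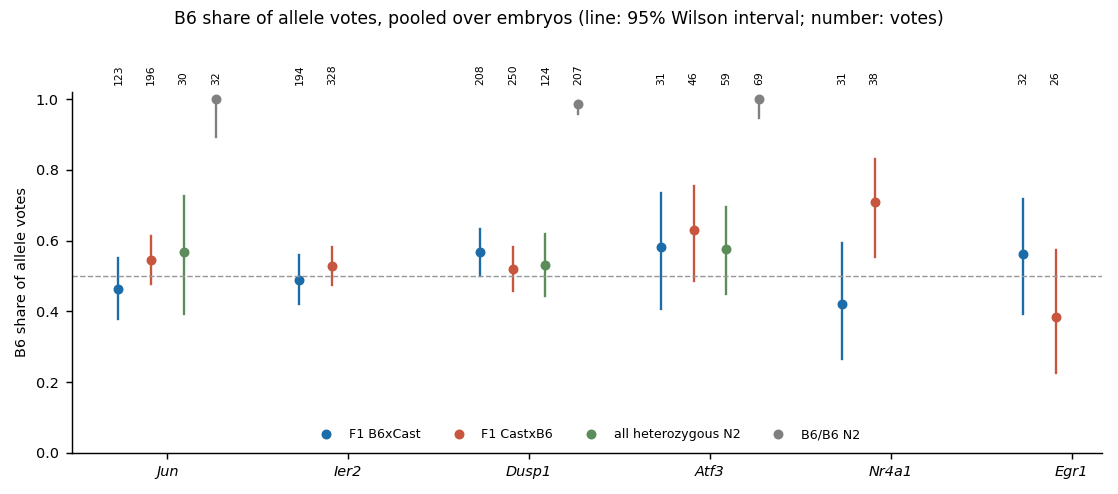
B6 share of allele votes of 6 members, pooled over the embryos of each F1 cross, over heterozygous N2 embryos and over B6/B6 N2 embryos (points, share; lines, 95% Wilson interval; numbers, votes; sets with under 20 votes left out). F1 sets lay between 0.385 and 0.71, with the widest gap between crosses for Nr4a1 (0.419 and 0.71), and B6/B6 embryos lay at 0.986 to 1.

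The last comparison set N2 embryos that were heterozygous at the member's own position against those that were B6/B6, with the rank-sum test on log2(RPM + 1) after the lane mean was subtracted and Benjamini-Hochberg adjustment. *Jun* was called, 1 of 3 members, compared with 27.2% of all genes. It was at 47.1 ± 13.6 RPM in 72 heterozygous and 39.7 ± 13.9 in 77 B6/B6 embryos, which overlapped, a difference in the lane-centred means of 0.15 on the log2 scale (q = 0.0154). Without lane centring it was 0.27 (q = 0.00788). *Junb*, with 9.82 ± 4.51 and 8.8 ± 4.07 RPM (q = 0.389), and *Ier2*, with 56.4 ± 20.7 and 61 ± 24 RPM (q = 0.527), did not pass. With genes from a mean of 1 RPM on, added after seeing the data, *Nr4a1* was lower in heterozygous embryos, at 2.83 ± 2.3 compared with 3.89 ± 2.85 RPM (-0.27 on the log2 scale, q = 0.0129). This made 2 of 6 members, compared with 24.9% of all genes, and *Atf3* and *Dusp1* did not pass (q = 0.307 and 0.518). Genotypes of neighbouring genes are shared over long stretches of a chromosome in N2 embryos, so that a difference cannot be assigned to the member itself. Of 19 other immediate early genes 5 passed, *Btg2* higher by 0.5 and *Rhob*, *Ier5l*, *Nfkbia* and *Trib1* lower.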

How the data were processed

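Counts, allele votes and genotypes of 16 F1 and 154 N2 embryos were used, and the labels gave each embryo's group, litter, lane and somite number. The authors mapped reads with Bowtie2 (version not given in the sources used here) to mm9 and to a Cast genome, left out reads with near-equal second hits, and deposited raw read counts per RefSeq gene. They also deposited votes per allele, which are estimated counts and need not be whole, and genotypes from a hidden Markov model, coded per gene as B6/B6, heterozygous or not called. Of 168 N2 columns 14 were not used, 8 whose labels name no mother and 6 without genotypes. F1 embryos were sequenced in more than 1 run and have 1 column each.

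RPM was the count per 1000000 reads on genes (15703888 to 38234229 per F1, 245220 to 5370322 per N2 embryo). Rank tests and correlations (scipy 1.17.1) took genes averaging 5 RPM or more, with 100000 resamples in permutation tests, within lanes for N2, and edgeR 4.0.16 (quasi-likelihood, TMM, R 4.3.3) took genes from 1 RPM on. Allele tests needed 20 votes per cross. The thresholds were a Bonferroni-adjusted p of 0.01 for the mother and for alleles, the latter with a BAF outside 0.45 to 0.55, and 0.05 after Benjamini-Hochberg adjustment elsewhere. Shares of variance were adjusted for the number of groups, on log2(RPM + 1). Alternatives used DESeq2 1.42.0 and limma 3.58.1, and the count models were tested on simulated data. P-values measure the spread between embryos. Gene coordinates are those of mm9 in GENCODE. Members were given in each comparison whose minimum they met, by name or in a count. Genes of smallest p in the lists and the 10 genes most like the members were named with them. The members and lists were chosen with earlier results of these data known.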

Additional observations from a re-analysis of the deposited data

Results flagged for a closer look

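Among 81 groups of 4 to 10 littermates and genes examined for 1 embryo apart from its littermates, 6 had one, where chance gives about 1 in 20 groups. For *Ier2*, 1 embryo of F1 × B6 litter 12 was at 134 RPM (170 reads), the next at 67.6 RPM, and 1 embryo of B6 × F1 litter 14 was at 35.8 RPM (68 reads), the next at 58.8 RPM. For *Junb*, 1 embryo was above its littermates in F1 × B6 litter 4 (10.7 RPM, next 6.76), litter 6 (5.94, next 4.02) and litter 7 (13.3, next 7.76), on 18 to 30 reads each. Litters split between lanes were examined as a whole. The embryo of litter 6 was in lane G and 4 of its littermates in lane D, and the *Junb* means of these lanes were 7.27 and 4.6 RPM. In F1 embryos, 1 of Cast × B6 litter 1 was below its littermates for *Junb*, at 6.83 RPM (236 reads), the next at 8.87 RPM. *Junb* was lower in embryos of F1 than of B6 mothers on the first flowcell and higher on the second, and the log2 ratio changed by 0.53 in the interaction test given above.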

How the results depend on the processing

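Of 75 alternative settings for the counts of genes or pairs called, 52 stayed within 1.5 times the count, and of 435 for members or pairs 396 kept direction and side of the threshold. For the mother, 490 genes became 3073 with the Benjamini-Hochberg adjustment, 2514 with edgeR and 2714 with DESeq2. They became 212 and 24 within the first and second flowcell, and 0 with limma and litter as a random block. Over litter means the count was 0 at either minimum, where even full separation of the litters could not have passed. Within the second flowcell *Jun* (0.705), *Junb* (0.791) and *Ier2* (0.56) reversed. For somite number, 2206 genes became 387 with lane means subtracted (438 from 1 RPM on), 5161 in embryos of B6 mothers and 174 over litter means. With lane means subtracted rho reversed for *Jun* (-0.0085), *Dusp1* (-0.0446) and *Nr4a1* (-0.0496), and in embryos of F1 mothers for *Junb* (0.16) and *Ier2* (0.189). For embryo number, adding somite number gave 0 genes instead of 17 and reversed *Nr4a1* (0.0051). For the stage-matched F1 litters, leaving out 1 embryo gave 934 to 1988 genes instead of 1849, lowest without embryo 5 of B6 × Cast litter 5 (934) and without embryo 2 of Cast × B6 litter 2 (1124), and -0.038 to 0.16 for *Atf3*. Calls of allelic expression numbered 3244 with Benjamini-Hochberg adjustment and 1081 in F1 embryos alone, instead of 1714. Pairs called fell from 1 to 0 in N2 embryos with 6 or all members, without embryos under 1000000 reads and within the second flowcell, and in F1 embryos were 4 with 7 members and 1 with litter means subtracted, which also reversed *Junb* and *Dusp1* (-0.0176). Pooling votes reversed the cross difference of *Ier2* (-0.0378). The cause was not tested. The settings with 6, 7 or all members, those from 1 RPM on over lane or litter means, and the flowcell pairs were chosen after seeing the data. No paired analysis was possible because embryo numbers run within litters and pair nothing across crosses. Litter and lane served as blocks where stated, and own genotype and somite number were not tested with litter as a block. At the median N2 depth, genes under 5 RPM rest on a few reads per embryo.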
